A study of Mus musculus with 34 samples.

Results

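The MAP kinase phosphatases are dual-specificity enzymes that remove phosphate from both the threonine and the tyrosine of the activation loop of a MAP kinase and so switch it off. Cells induce several of them as immediate-early or delayed-early genes through the very kinases they act on, which makes their mRNA a common readout of recent ERK, JNK or p38 signalling, and in the heart these kinases are known for their roles in hypertrophic growth and in the response to ischemia. The genes described here are 10 dual-specificity phosphatase genes chosen by name: the inducible nuclear enzymes Dusp1, Dusp2, Dusp4 and Dusp5, the cytoplasmic ERK phosphatases Dusp6 and Dusp7, the JNK and p38 phosphatases Dusp8, Dusp10 and Dusp16, and Dusp14, a small member that lacks the kinase-binding domain of the others. All 10 were listed in both deposited tables, of 14552 genes for mice without injection and 17406 genes for the series of injected mice. Of these, 9 reached a mean of 1 CPM or more (CPM is the count of a gene scaled to a fixed library total) over the libraries of the first table and 8 did so in the injection series, and only those were tested. Dusp14 stayed under that level in both tables and Dusp4 in the injection series.

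Expression was measured by RNA sequencing of the heart left ventricle (LV) of CFW mice, an outbred Swiss strain whose age and sex the sources used here do not give, in 34 libraries. In the first table myocardial infarction (MI), produced by tying off the left anterior descending (LAD) coronary artery for good, was followed for 4 h (n = 3) or 24 h (n = 4) and set against sham hearts (n = 3), all without injection. For these mice the study's methods describe the sampled tissue as the ischemic area, or the matching area of a sham heart, and not the whole ventricle. They do not say which area was sampled in the injection series. The shams are titled as sham, and the study's methods call them sham-operated, but their stress label says that they had no operation. In the injection series, Luc modRNA (chemically modified mRNA encoding firefly luciferase, a reporter with no role in the heart) or AC modRNA was injected into the border zone right after ligation, and LV was collected 4 h (n = 4 of each), 24 h (n = 3 of each) or 48 h (n = 4 of each) post-MI. The 2 shams of that series had a sham operation, were collected at 4 h and had no injection, so ligation and injection cannot be told apart in a comparison of Luc with sham. AC is not spelled out in the labels. In that series the numbers after the sample titles run on through the sham and 4 h libraries, start again at 48 h and are missing at 24 h. Only the 24 h titles of that series carry the letters Br, whose meaning is not given. Time after MI thus cannot be told apart from any set of libraries that these numbers or letters mark, and AC was compared with Luc within a time.

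Reads in the listed genes of the first table, with the smallest value in each library taken as 1 read, were 12553519 to 18952669 per library. The listed genes summed to 568058 to 662286 CPM, so reads outside them are left out and the full depth was higher. The depth of the injection series is unknown, and the tables were normalized separately, so a level in 1 table is not on the scale of the other. Libraries of a group correlated at r = 0.940 to 0.996 over the genes tested, and none were identical. Cardiac muscle markers (6 of 6 listed) were present in every library, and no marker of any list was at 0 throughout a group. Every gene listed in the first table was above 0 in each of its libraries, so this check could tell only about the injection series. In bulk LV, fewer cells of a type and less RNA per cell cannot be told apart. At 24 h post-MI in mice without injection, the summed cardiomyocyte markers were 12585 to 20562 CPM against 32027 to 32531 CPM in sham, and the summed neutrophil markers 286 to 1835 CPM against 1.33 to 1.82 CPM. Monocyte and macrophage markers summed to 333 to 696 CPM at 24 h against 95 to 161 CPM in sham, and atrial markers (3 of 4 listed) to 1150 to 1822 CPM against 80.5 to 296 CPM. Of the atrial genes 2 were tested and 1 of them was higher at 24 h, so the sum does not show a rise across that list. In injected mice at 24 h, the cardiomyocyte sums were 37866 to 57210 CPM against 34811 and 35478 CPM in their own shams, and the neutrophil sums 44.5 to 304 CPM against 20.5 and 2.63 CPM. The Luc libraries 1 and 3 at 48 h stood apart from Luc libraries 2 and 4, with cardiomyocyte sums of 34377 and 28994 CPM against 23418 and 22521 CPM. Sham library 1 of the injection series had a neutrophil sum of 20.5 CPM against 2.63 CPM in sham library 2. Erythroid markers summed to 427 to 736 CPM at 4 h without injection against 157 to 241 CPM in sham, and to 1703 to 10672 CPM at 4 h with injection against 190 and 631 CPM in sham. The part of these markers in the results below was not tested.

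**Figure D1:**
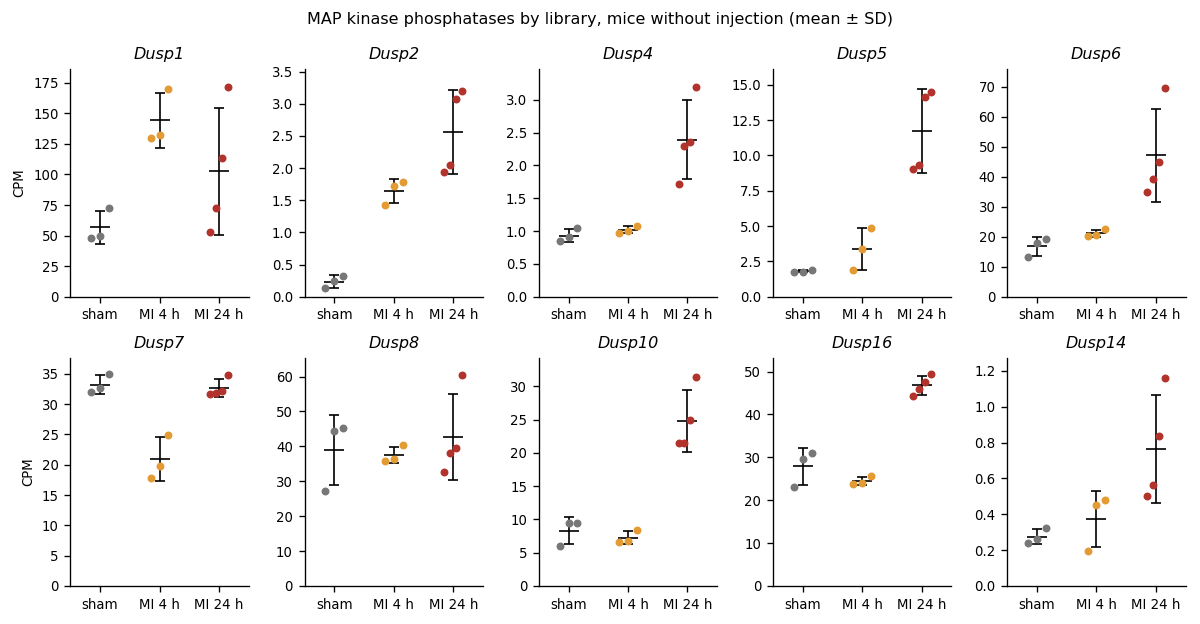
CPM of each MAP kinase phosphatase in every library of the mice without injection (grey, sham; orange, 4 h post-MI; red, 24 h post-MI), with the group mean and SD as bars; each axis starts at 0. At 24 h, Dusp2, Dusp4, Dusp5, Dusp6, Dusp10, Dusp16 and the untested Dusp14 lay above all 3 sham libraries, while the 4 values of Dusp1 spread from 52.6 to 171 CPM.

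By 24 h post-MI, 6 of the 9 phosphatases tested were higher than in sham and none was lower, whereas at 4 h only Dusp2 was higher and only Dusp7 lower. Dusp2 and Dusp4 averaged under 1 CPM in sham and reached the filter through the libraries after MI, so the 6 include members that were admitted by their own higher level. These counts stand beside a background in which 35.6% of the 12487 genes tested were higher at 24 h and 30.3% lower, and 1.55% were higher and 0.817% lower at 4 h. The median change of the 9 was 0.80 on the log2(CPM + 1) scale at 24 h and 0.07 at 4 h, beside 0.04 and -0.03 for all genes tested. All tests used limma with a moderated test fitted to every gene at once, and an adjusted p is Benjamini-Hochberg adjusted over all genes tested. Without injection the largest change of a member was that of Dusp5 at 24 h, and the highest fold was that of Dusp2, whose sham level was close to 0.

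In sham LV the phosphatases differed widely in level when CPM was divided by transcript length in kilobases. Dusp1 was highest at 28.5 CPM per kb, followed by Dusp7 at 10.3, Dusp8 at 8.11, Dusp6 at 6.03, Dusp16 at 5.47 and Dusp10 at 2.98 CPM per kb. Dusp5 (0.732 CPM per kb), Dusp4 (0.340), Dusp14 (0.191) and Dusp2 (0.144) were the lowest. The sham libraries of Dusp8 and Dusp6, of Dusp6 and Dusp16, and of Dusp14 and Dusp2 overlapped in that order, so these neighbours did not differ beyond their spread. At 24 h post-MI the order began with Dusp1 at 51.5 and Dusp6 at 16.8 CPM per kb. Dusp7, Dusp16, Dusp8 and Dusp10 then lay close together at 10.2, 9.17, 8.89 and 8.89 CPM per kb, and their libraries overlapped except those of Dusp7 and Dusp16. Dusp5 stood at 4.75, Dusp2 at 1.58, Dusp4 at 0.873 and Dusp14 at 0.529 CPM per kb, with the libraries of Dusp4 and Dusp14 overlapping.

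Among the nuclear enzymes, Dusp1 (also known as MKP1, chr17:26505591-26508472 in mm10, minus strand), the classic immediate-early phosphatase that acts on p38, JNK and ERK, was the most abundant. It measured 49.3, 48.2 and 72.5 CPM in the sham libraries, 130, 133 and 170 CPM at 4 h, and 113, 171, 52.6 and 72.9 CPM at 24 h. All 4 h libraries lay above all shams, while the 24 h libraries fell into a high pair and a pair within or next to the sham range. The ratio of means was 2.54 ± 0.73 (SD) at 4 h and 1.81 ± 1.0 at 24 h. Neither difference passed the adjustment over all genes, at a log2 difference of 1.35 ± 0.35 (SE, adjusted p = 0.0797) for 4 h and 0.73 ± 0.32 (adjusted p = 0.0666) for 24 h. The 4 h difference did pass in a fit of the 4 h and sham libraries alone, with limma array weights, and without 24 h library D or G, which share its estimate of spread. The 24 h difference passed with array weights and without library G, the 24 h library that had the lowest neutrophil sum (286 CPM) and the lowest Dusp1. Over the 16 alternatives, the replicate block included, the adjusted p for 4 h ranged from 0.00178 to 0.292 and that for 24 h from 0.00505 to 0.179.

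Dusp2 (PAC1, chr2:127336159-127338377, plus strand), a nuclear ERK and p38 phosphatase best known from activated leukocytes, was nearly absent from sham LV. The sham libraries held 0.325, 0.242 and 0.13 CPM, which correspond to 9, 6 and 4 reads. At 4 h it measured 1.43, 1.72 and 1.78 CPM, and at 24 h 3.19, 3.07, 1.93 and 2.05 CPM, so no library of a later group overlapped with an earlier group. Dusp2 rose to 7.07 ± 3.1 times the sham mean at 4 h (log2 difference 1.10 ± 0.17, adjusted p = 0.00602) and to 11 ± 5.4 times at 24 h (1.51 ± 0.16, adjusted p = 1.04e-05). The 24 h libraries with the higher Dusp2, C and D, were also those with the higher neutrophil sums of 1835 and 1641 CPM, against 286 and 777 CPM in G and H. In the injection series at 24 h, Luc and AC libraries went different ways. Luc libraries A, D and C had neutrophil sums of 89.4, 54.2 and 44.5 CPM and Dusp2 of 4.67, 3.06 and 2.01 CPM. AC libraries c, d and a had sums of 304, 84.8 and 48.9 CPM and Dusp2 of 0.826, 1.62 and 3.74 CPM. AC library c also had the lowest Dusp1 of these 24 h libraries (66.9 CPM). The part of neutrophils in the Dusp2 change was not tested.

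Dusp4 (MKP2, chr8:34807610-34819894, plus strand), a nuclear phosphatase of ERK and JNK, was close to 1 CPM in sham (0.904, 0.847 and 1.04 CPM) and at 4 h (0.978, 1.01 and 1.08 CPM). It measured 3.19, 1.72, 2.3 and 2.36 CPM at 24 h, all above every earlier library. The 24 h mean was 2.57 ± 0.71 times sham (log2 difference 0.80 ± 0.15, adjusted p = 0.000653), whereas the difference at 4 h was 0.07 with an interval of -0.28 to 0.42.

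Dusp5 (chr19:53529318-53541322, plus strand), a nuclear phosphatase selective for ERK, was nearly constant in sham at 1.77, 1.77 and 1.88 CPM. The 4 h libraries read 1.88, 4.83 and 3.37 CPM, with the lowest of them at the level of the highest sham, and the difference did not pass the test (0.58 ± 0.25, adjusted p = 0.28). At 24 h it measured 14.1, 9.04, 9.3 and 14.5 CPM, all above every 4 h library. Dusp5 rose to 6.48 ± 1.7 times sham at 24 h (2.15 ± 0.23 on the log2 scale, adjusted p = 1.26e-05).

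The promoter of Dusp1 is known to carry cAMP response elements. RefSeq promoter windows (build GRCm38.p6, the assembly also called mm10) were at hand for 9 of the members, with none used for Dusp4. The windows were read on both strands for TGACGTCA, the full cAMP response element, for TGACG, the core it contains, for TGANTCA, the AP-1 element, for the CArG box bound by serum response factor, and for ACGTG, a hypoxia response core. The full element stood in 2 of the 9 windows against 1.79% of 32851 mouse promoters of the same length, and the CArG box in 1 of 9 against 1.63%. TGACG was found in 5 of 9 windows (20.8% of all promoters), ACGTG in 3 of 9 (19.6%) and TGANTCA in 0 of 9 (7.81%). The windows below show the full element and the CArG boxes in capitals, 5′ to 3′ on the strand of the gene, for the genes that hold them. Distances are counted from the start site of each RefSeq window, which for Dusp5 lies upstream of the gene start given above from the deposited table.
Dusp1, chr17:26508598-26508625, minus strand, first capital 143 bases before the start site: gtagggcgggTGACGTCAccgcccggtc
Dusp8, chr7:142095374-142095401, minus strand, 107 bases before: cccgctccgcTGACGTCAcctgcccccg
Dusp8, chr7:142095330-142095357, minus strand, 63 bases before: tggctgcaggTGACGTCAggggcttttt
Dusp5, chr19:53529053-53529082, plus strand, 82 bases before: ggggaaatacCCATATTTGGccttatatgg
Dusp5, chr19:53529063-53529092, plus strand, 72 bases before: ccatatttggCCTTATATGGgcactcacgt
In Dusp5 the CArG boxes lie back to back, and Dusp8 holds the full element at 2 places. A match of letters is a description and not evidence of binding.

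The cytoplasmic ERK phosphatases moved apart from each other. Dusp6 (MKP3, chr10:99263231-99267489, plus strand), a feedback inhibitor of ERK whose mRNA is widely used as an ERK readout, measured 18, 13.3 and 19.3 CPM in sham. At 4 h it was 20.4, 22.4 and 20.4 CPM, just above every sham but with a difference that did not pass (0.32 ± 0.22, adjusted p = 0.513). The 24 h libraries read 69.5, 44.8, 34.8 and 39.2 CPM, all above the 4 h libraries. Dusp6 rose to 2.79 ± 1.1 times sham at 24 h (1.39 ± 0.21, adjusted p = 0.000118).

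Dusp7 (MKPX, chr9:106368632-106375723, plus strand), its close relative, was the member that fell at 4 h. Sham libraries held 32, 34.9 and 32.7 CPM and 4 h libraries 17.9, 19.9 and 24.9 CPM, with no overlap. It fell by 0.66 ± 0.12 on the log2 scale (adjusted p = 0.0145), to 0.628 ± 0.11 times the sham mean. At 24 h the libraries were again at 34.9, 32.1, 31.7 and 31.8 CPM, a difference from sham of -0.03 with an interval of -0.27 to 0.22. The 4 h call was lost when 4 h library C or D or sham library H or I was left out, with adjusted p up to 0.0939 over all alternatives.

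Of the JNK and p38 phosphatases, Dusp10 and Dusp16 rose at 24 h and Dusp8 did not pass the test. Dusp10 (MKP5, chr1:184034461-184075636, plus strand), which prefers JNK and p38 over ERK, measured 6, 9.4 and 9.52 CPM in sham and 6.66, 6.7 and 8.44 CPM at 4 h. At 24 h it stood at 21.4, 21.5, 25 and 31.4 CPM, far above all earlier libraries. The 24 h mean was 2.99 ± 0.91 times sham (1.48 ± 0.18, adjusted p = 2.49e-05), and the 4 h difference was -0.15 with an interval of -0.57 to 0.26.

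Dusp16 (MKP7, chr6:134715468-134792628, minus strand), a JNK phosphatase that moves between nucleus and cytoplasm, had the tightest 24 h group among the members that rose, at 47.7, 49.3, 44.3 and 45.9 CPM. Sham libraries held 29.6, 31.1 and 23.1 CPM and 4 h libraries 25.5, 23.9 and 24 CPM. The 24 h mean was 1.68 ± 0.27 times sham (0.73 ± 0.11, adjusted p = 0.000108).

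Dusp8 (chr7:142079487-142095284, minus strand), a JNK and p38 phosphatase expressed in heart and brain, overlapped across all groups. It measured 44.3, 45.3 and 27.2 CPM in sham, 40.3, 35.9 and 36.4 CPM at 4 h and 32.6, 38.1, 60.5 and 39.6 CPM at 24 h. The interval of the difference from sham was -0.52 to 0.48 at 4 h and -0.34 to 0.59 at 24 h. Dusp14 (MKP6, chr11:84048045-84068357, minus strand) was under the filter, at 0.325, 0.242 and 0.26 CPM in sham, 0.451, 0.479 and 0.194 CPM at 4 h, and 1.16, 0.501, 0.564 and 0.837 CPM at 24 h. Its 24 h libraries rested on 14 to 31 reads each and the shams on 6 to 9. With no filter its 24 h difference of 0.45 ± 0.14 passed (adjusted p = 0.0121).

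**Figure D2:**
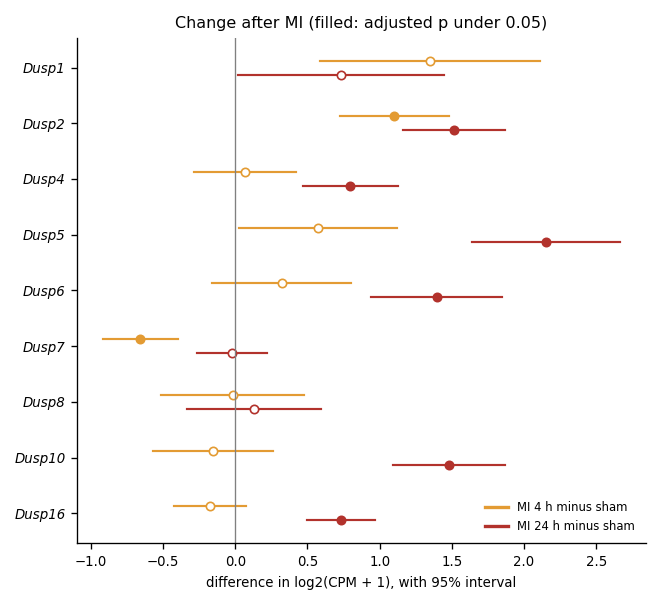
Difference from sham in log2(CPM + 1) for the 9 phosphatases tested, at 4 h (orange) and 24 h (red) post-MI, with 95% intervals; filled points have an adjusted p under 0.05. The intervals of Dusp2, Dusp4, Dusp5, Dusp6, Dusp10 and Dusp16 at 24 h lie to the right of 0, Dusp7 lies to the left of 0 at 4 h only, and Dusp8 straddles 0 at both times.

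The 24 h and 4 h groups were also compared directly. Here 7 of the 9 members were higher at 24 h, beside 37.2% of all genes tested, and none was lower. The largest differences were those of Dusp10 (3.42 ± 0.80 times the 4 h mean, log2 difference 1.63 ± 0.18, adjusted p = 1.58e-05) and Dusp5 (3.49 ± 1.8 times, 1.58 ± 0.23, adjusted p = 0.000139). Dusp6, Dusp16, Dusp4 and Dusp7 differed by 1.07, 0.91, 0.73 and 0.63. Dusp2 differed by 0.41 ± 0.16 (adjusted p = 0.0401), a call that was lost under 9 of its 16 alternatives. Dusp1 was the member with the opposite sign, at -0.62 with an interval of -1.33 to 0.10 (adjusted p = 0.117).

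The rest of the pathway, taken from lists of the same gene families, was described by the same test. At 4 h, 9 of 13 genes listed as ERK-responsive transcription factors were higher and none lower, beside 1.55% and 0.817% of all genes tested. They were led by Fos (10.5 to 207 CPM, log2 difference 4.25), Fosb (3.58), Egr1 (3.03) and Myc (2.76). That list also holds Ier3, which is not a transcription factor. Of the 11 MAP kinases only Mapk6 (ERK3) was higher at 4 h, by 0.57, and of 6 Sprouty and Spred inhibitors, which restrain Ras and ERK upstream, only Spry4, by 1.24. None of 7 MAP kinase kinases, 10 MAPK-activated kinases, 11 other dual-specificity phosphatases or 2 tyrosine phosphatases with a kinase-interaction motif passed by limma at 4 h, with 0, 1, 1 and 0 of them at an unadjusted p under 0.05. At 24 h, 35.6% of all genes tested were higher and 30.3% lower. Of the 13 genes in the transcription factor list, 11 were higher and 1 lower, with Myc at 4.32, Fosl1 at 4.31, Ier3 at 3.72 and Junb at 2.86. The Sprouty and Spred genes were higher for 4 of 6 and lower for 1, with Spred3 at 2.85, Spry4 at 1.61 and Spred1 at 0.98. The kinases themselves went both ways, as did all genes: 5 of 11 MAP kinases were higher and 4 lower (Mapk13 at 1.68, Mapk11 at 1.56 and Mapk7 at 1.28 against Mapk10, the neuronal and cardiac JNK3, at -1.57). Among MAP kinase kinases, Map2k3 (1.60) and Map2k1 (1.44), which activate p38 and ERK, were higher and Map2k6 (-1.55), also a p38 activator, was lower, and in all 3 of 7 were higher and 2 lower. The MAPK-activated kinases divided into 4 higher and 3 lower of 10, among them Rps6ka4 (MSK2, 1.18) and its relative Rps6ka5 (MSK1, -1.05).

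The 11 other dual-specificity phosphatases tested were higher for 4 and lower for 4 at 24 h, beside 35.6% and 30.3% of all genes. Their median difference was -0.13. Dusp26, a phosphatase known from brain and skeletal muscle, rose from a mean of 1.04 CPM to 10.0 CPM (2.42 ± 0.16, adjusted p = 6.33e-07). Dusp27, a muscle pseudophosphatase, rose from 41.9 to 122 CPM (1.49). Dusp18, a mitochondrial enzyme, was lower at 11.1 CPM against 58.2 CPM in sham (-2.31 ± 0.13, adjusted p = 2.23e-07), and Dusp28 at 3.87 against 8.19 CPM (-0.92). The tyrosine phosphatases Ptpn7 and Ptprr, which bind MAP kinases through a short motif, went apart at 1.71 and -0.71.

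**Figure D3:**
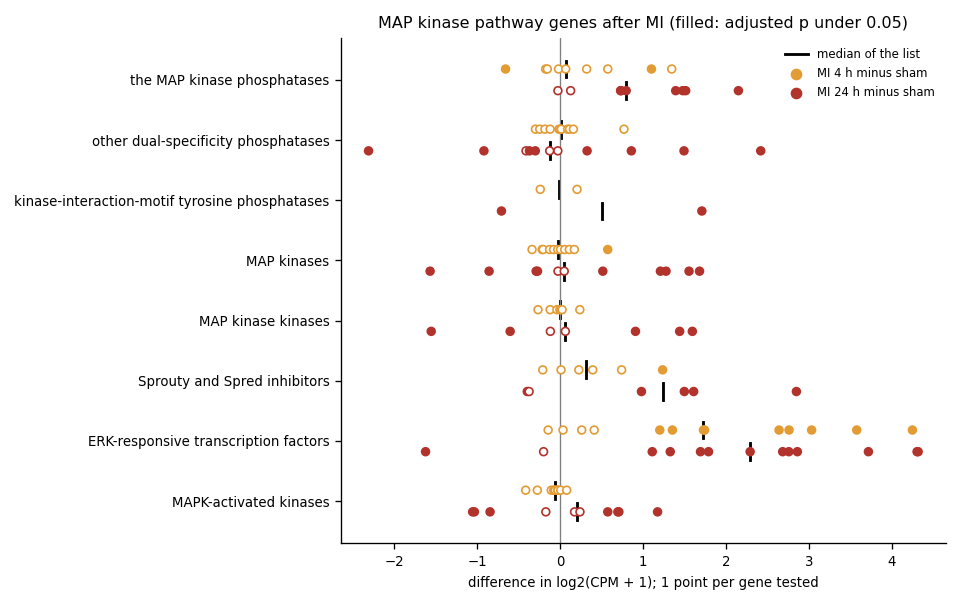
Difference from sham in log2(CPM + 1) for every tested gene of the MAP kinase lists at 4 h (orange) and 24 h (red) post-MI; filled points have an adjusted p under 0.05 and the black bars mark list medians. At 4 h, 9 of the 13 genes in the transcription factor list are filled, and the phosphatase list has a median of 0.07 at 4 h and 0.80 at 24 h.

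In the injection series, the Luc hearts at 4 h were higher than sham for Dusp1 and Dusp5, 2 of the 8 members tested, beside 1.25% of 12555 genes. At 24 h, 5 of 8 were higher and none lower, beside 25.3% higher and 8.79% lower of all genes. At 48 h, 2 of 8 were higher and none lower, beside 13.7% higher and 16.4% lower. Each of these comparisons uses the same 2 shams. Without sham library 1, the library with the higher neutrophil sum, 0 members were called at 4 h, 2 at 24 h and 0 at 48 h, beside 52, 1682 and 2150 of the 12555 genes in the same fit, against 194, 4275 and 3774 with that library. Dusp2 and Dusp5 are again members whose sham mean was under 1 CPM.

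Dusp1 measured 39.1 and 56.5 CPM in these shams, and in Luc hearts 153, 154, 137 and 152 CPM at 4 h, 138, 103 and 111 CPM at 24 h, and 130, 42.9, 46.1 and 107 CPM at 48 h for libraries 1, 2, 4 and 3. The 4 h and 24 h libraries were all above sham, whereas at 48 h libraries 1 and 3 were above and libraries 2 and 4 within the sham range. Dusp1 rose to 3.12 ± 0.82 times sham at 4 h (1.64 ± 0.32, adjusted p = 0.00707) and to 2.45 ± 0.74 times at 24 h (1.29 ± 0.34, adjusted p = 0.00604). At 48 h the difference was 0.61 with an interval of -0.06 to 1.28, and it was -0.08 without libraries 1 and 3.

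Dusp5 was at 0.358 and 1.3 CPM in sham and between 1.96 and 9.37 CPM in all 11 Luc libraries. It rose at each time, by 1.79 ± 0.34 at 4 h (adjusted p = 0.00442), 1.75 ± 0.36 at 24 h (adjusted p = 0.000772) and 1.34 ± 0.34 at 48 h (adjusted p = 0.00479). The 4 h libraries held a narrow 4.6 to 5.59 CPM and the 24 h libraries 9.37, 4.45 and 2.7 CPM. Without Luc libraries 1 and 3 the 48 h difference was 0.88 (adjusted p = 0.0813).

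Dusp2 stood at 0.391 and 0.286 CPM in sham, 1.68 to 2.14 CPM in Luc hearts at 4 h, 4.67, 2.01 and 3.06 CPM at 24 h and 0.526 to 1.42 CPM at 48 h. It rose to 9.59 ± 4.5 times sham at 24 h (1.62 ± 0.30, adjusted p = 0.000338), the difference at 4 h was just over the threshold (1.11 ± 0.29, adjusted p = 0.0502), and at 48 h it was 0.53 (adjusted p = 0.166). From 24 to 48 h Dusp2 fell by 1.09 ± 0.25 (adjusted p = 0.00186), and the libraries of these times did not overlap.

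Dusp6 was at 15.1 and 13 CPM in sham and rose by 0.71 in Luc hearts both at 24 h (19.7, 29.9 and 22.3 CPM, adjusted p = 0.0277) and at 48 h (31.7, 20, 19.2 and 25.1 CPM for libraries 1, 2, 4 and 3, adjusted p = 0.0242). The 24 h call was lost without Luc library C (adjusted p = 0.115), and the 48 h difference was 0.46 without libraries 1 and 3 (adjusted p = 0.209). The 48 h call was also lost without library 1 or 3 alone (adjusted p = 0.0728 and 0.05), with array weights (0.21) and with the compared groups alone (0.0833). Without sham library 1 or 2, which leaves 1 sham, the difference was 0.82 or 0.61 at 24 h and 0.81 or 0.61 at 48 h. Dusp7 measured 15.3 and 17.1 CPM in sham, 17.3, 14.3, 13.8 and 13.0 CPM at 4 h, and 23.6, 25.1 and 25.8 CPM at 24 h. It rose by 0.59 ± 0.22 over sham at 24 h (adjusted p = 0.0393) and was not different at 4 h, where the interval was -0.57 to 0.28. Its 24 h call against sham was lost when any 1 of the 24 h Luc libraries or either sham was left out, with adjusted p up to 0.225.

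Between times in the Luc hearts, 1 member was higher at 24 than at 4 h and 1 lower, beside 24.5% and 7.8% of all genes, and 2 were lower at 48 than at 24 h, beside 32.6%. Dusp7 was the one that rose from 4 to 24 h (0.73 ± 0.18, adjusted p = 0.00403), and it fell by 0.55 ± 0.18 from 24 to 48 h (adjusted p = 0.0186), a difference of -0.29 that did not pass (adjusted p = 0.17) without Luc libraries 1 and 3. That call was also lost with median-ratio rescaling (-0.31, adjusted p = 0.177), with the compared groups alone (adjusted p = 0.0849), without 48 h Luc library 1 (0.0748) and without 24 h Luc library C or D (0.0505 and 0.0639). Without 48 h Luc libraries 1 and 3, 4 members were called between 24 and 48 h, beside 5520 of 12555 genes in that fit, with Dusp1 at -1.37, Dusp2 at -1.40, Dusp5 at -0.87 and Dusp8 at 0.52. Dusp8 moved the other way from 4 to 24 h, from 53.1, 55.5, 45.7 and 54 CPM to 27.5, 27.1 and 21.8 CPM, with no overlap. It fell by 1.01 ± 0.21 (adjusted p = 0.00105), to 0.489 ± 0.073 times the 4 h mean. Against sham (33.6 and 45.9 CPM), its 24 h difference was -0.61 ± 0.25 (adjusted p = 0.0601).

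Dusp10 and Dusp16, which rose at 24 h in mice without injection, were not called in Luc hearts at any time. Dusp10 was at 5.34 and 5.14 CPM in sham and 6.67, 4.96 and 5.49 CPM in Luc hearts at 24 h, a difference of 0.10 with an interval of -0.45 to 0.64, and the interval of Dusp16 at 24 h was -0.40 to 0.28. The interval of Dusp10 does not reach its difference of 1.48 in mice without injection, but the tables were normalized separately and the difference between the series was not tested. The 24 h Luc libraries had summed cardiomyocyte markers of 43900 to 57210 CPM, above their own shams, whereas those sums lay below sham at 24 h without injection. All listed genes together also summed higher in these Luc libraries, at 730630 to 818456 CPM against 628938 and 619752 CPM in their shams. The part of this scaling in the marker sums was not tested.

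The low members of this series were not tested. Dusp4 was at 0.521 and 0.698 CPM in sham and at 0.384 to 1.39 CPM in Luc hearts, with the 48 h libraries (0.94 to 1.39 CPM) above sham. Dusp14 was at 0.0978 and 0.0635 CPM in sham, 0.0368 to 0.349 CPM in Luc hearts at 4 h, 0.392 to 0.656 CPM at 24 h and 0.497 to 0.928 CPM at 48 h. With no filter the Dusp14 differences from sham were 0.46 at 24 h (adjusted p = 0.0264) and 0.65 at 48 h (adjusted p = 0.00253).

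The other genes of the pathway were counted in the same way. In Luc hearts at 4 h, 10 of 14 genes in the transcription factor list were higher than sham and none lower, beside 1.25% of all genes higher. Among them were Fos (3.95 to 189 CPM, log2 difference 5.37) and Egr1 (16.3 to 337 CPM, 4.42). Spry4 (10.5 to 31.2 CPM, adjusted p = 0.0186) was the only 1 of 6 Sprouty and Spred genes that was higher. None of the other dual-specificity phosphatases, tyrosine phosphatases, MAP kinases, MAP kinase kinases and MAPK-activated kinases passed by limma at 4 h, with 2, 0, 1, 2 and 2 of them at an unadjusted p under 0.05. At 24 h, 25.3% of all genes were higher and 8.79% lower. In the transcription factor list 12 of 14 genes were higher, as were 6 of 6 Sprouty and Spred genes, with Spry4 at 1.96 and Spred3 at 1.24. Of the other dual-specificity phosphatases 2 were higher and 2 lower of 11, Dusp26 going from 1.38 to 10.9 CPM (2.22, adjusted p = 5.89e-05) and Dusp27 from 49.3 to 98.4 CPM. Dusp18, which was lower at 24 h without injection, was at 61.8 CPM against 77.3 CPM in sham (adjusted p = 0.402). At 48 h, 10 of 14 genes in the transcription factor list and 3 of 6 Sprouty and Spred genes were higher and none lower. Over all genes 13.7% were higher and 16.4% lower.

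**Figure D4:**
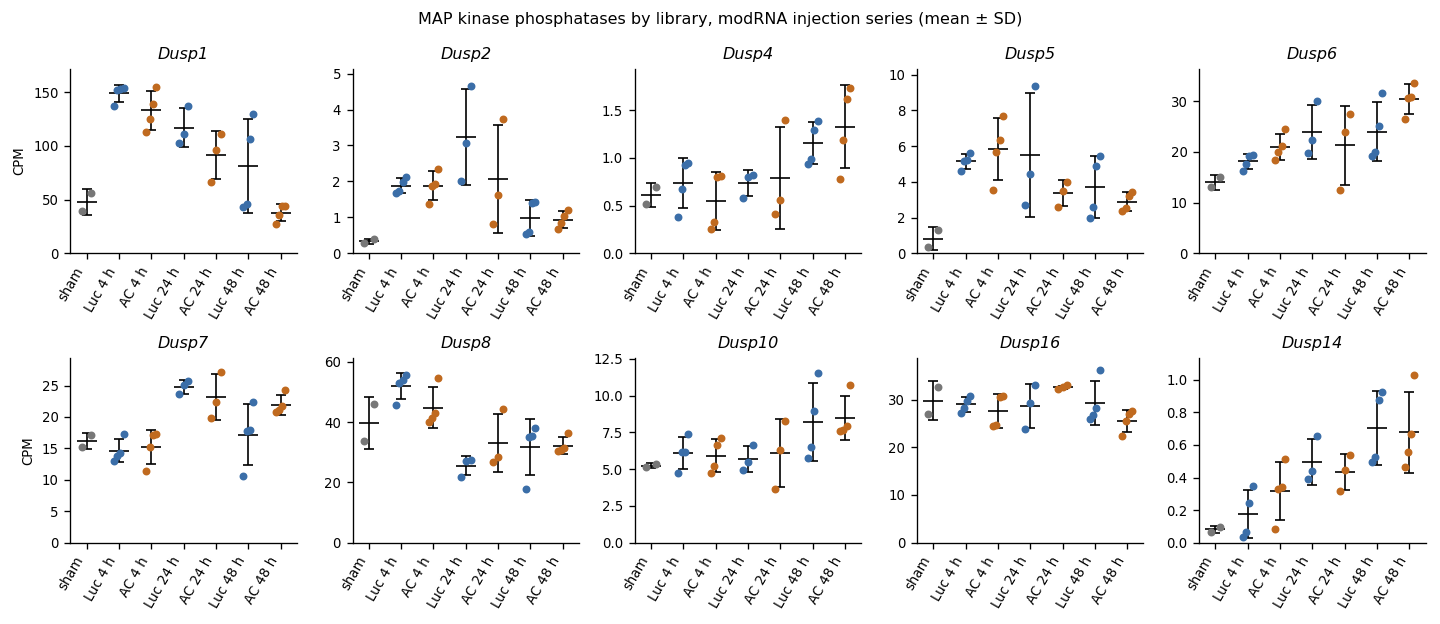
CPM of each phosphatase in every library of the injection series (grey, sham; blue, Luc; orange, AC), with the group mean and SD as bars; each axis starts at 0. At 48 h, Dusp1 in Luc hearts splits into 2 libraries at 107 and 130 CPM and 2 at 42.9 and 46.1 CPM, and the 4 AC libraries lie between 27.1 and 44.4 CPM.

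AC modRNA was set against Luc modRNA at each time to ask whether the injected mRNA mattered for these genes. At 4 h and at 24 h, 0 of the 8 members differed by limma, with 0 at an unadjusted p under 0.05 as well, beside 0.00796% of all genes called at each of these times. The 95% intervals of the AC minus Luc differences at 4 h ran from -0.72 to 0.38 for Dusp1, -0.49 to 0.47 for Dusp2, -0.46 to 0.68 for Dusp5 and -0.19 to 0.59 for Dusp6. At 24 h they were wider, with -1.01 to 0.26 for Dusp1, -1.09 to 0.02 for Dusp2, -1.12 to 0.20 for Dusp5 and -0.67 to 0.24 for Dusp6. Dusp16 had the narrowest interval at both times, -0.34 to 0.19 and -0.11 to 0.49. A p that misses the threshold does not show that the groups were alike, and these intervals give the differences that the libraries still allow.

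At 48 h, 1926 of the 12555 genes tested differed between AC and Luc, 410 of them (3.27%) lower in AC. Dusp1 was the only member that differed, and it was lower in AC. AC libraries held 27.1, 36.1, 44.3 and 44.4 CPM against 130, 42.9, 46.1 and 107 CPM in Luc libraries 1, 2, 4 and 3, so that the groups overlapped. Dusp1 was at 0.467 ± 0.27 times the Luc mean and fell by 0.94 ± 0.27 (adjusted p = 0.0203). Without Luc libraries 1 and 3, the difference was -0.25 (adjusted p = 0.605), and without 1 of them alone the adjusted p was 0.0944 or 0.101. It was also lost without AC library 1 or 2 (adjusted p = 0.0616 and 0.0519) and with array weights, which gave -0.32 (adjusted p = 0.204). Luc libraries 1 and 3 also had the higher cardiomyocyte sums, given above, and AC libraries had sums of 16145 to 19794 CPM. Monocyte and macrophage markers summed to 378 to 558 CPM in AC and 182 to 255 CPM in Luc hearts at 48 h, fibroblast markers to 1201 to 1957 CPM and 714 to 1066 CPM, and atrial markers to 1227 to 2966 CPM and 533 to 1169 CPM. The part of these markers in the Dusp1 difference was not tested. The intervals of the other members at 48 h were -0.49 to 0.48 for Dusp2, -0.79 to 0.36 for Dusp5, -0.04 to 0.74 for Dusp6, 0.03 to 0.73 for Dusp7 (adjusted p = 0.13), -0.32 to 0.48 for Dusp8, -0.35 to 0.50 for Dusp10 and -0.44 to 0.08 for Dusp16.

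Averaged over the 3 times, 0 of 8 members differed between AC and Luc, beside 0.00796% of all genes, with Dusp1 the 1 member at an unadjusted p under 0.05 (-0.50 ± 0.16, adjusted p = 0.221). A moderated F test of whether the AC minus Luc difference changed with time also called 0 of 8, with 0 at an unadjusted p under 0.05, beside 2.9% of all genes. The adjusted p of the members in that test ran from 0.462 for Dusp1 to 0.975 for Dusp10.

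**Figure D5:**
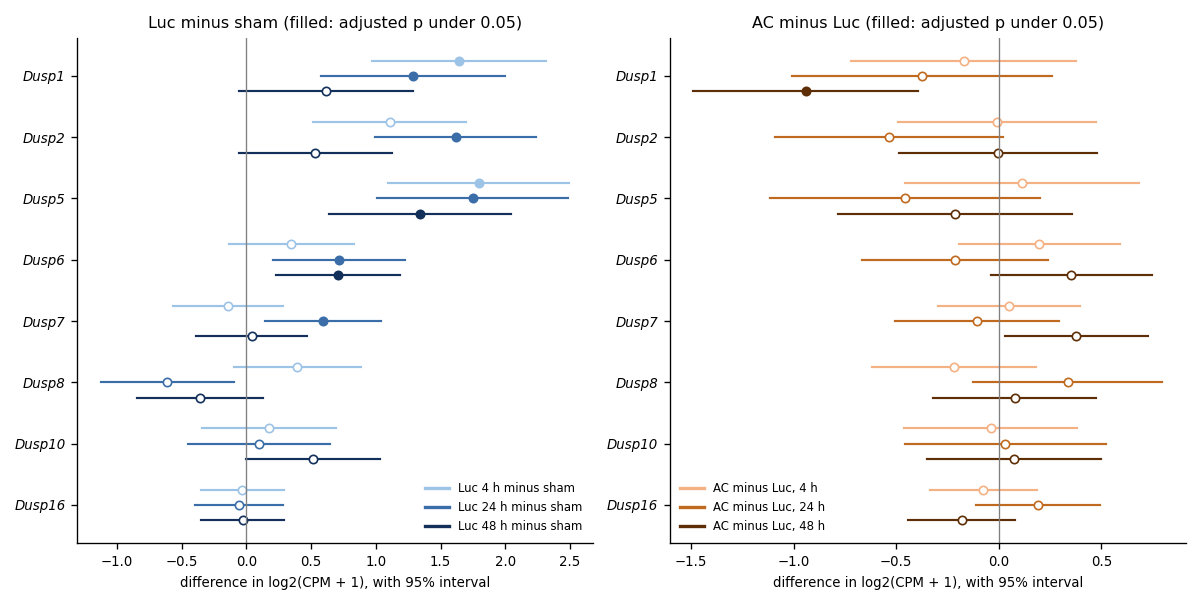
Differences in log2(CPM + 1) with 95% intervals for the 8 members tested in the injection series, Luc minus sham on the left (light to dark blue, 4, 24 and 48 h) and AC minus Luc on the right (light to dark brown); filled points have an adjusted p under 0.05. Dusp5 is filled at all 3 times on the left, and Dusp1 at 48 h is the single filled point on the right.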

How the data were processed

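Total RNA of 34 LV samples was sequenced from mRNA libraries. The deposited values are CPM. For these, the authors ran STAR against mm10, quantified RefSeq genes by expectation-maximization in Partek Flow, and applied TMM scaling. Whether counting used strand is not given in the sources used here, and antisense or overlapping genes may share reads. The table of the injection series holds CPM to which 1 had been added, since its lowest value is 1 in each library, and 1 was subtracted. Samples were grouped by their labels. Coordinates are those of the files, with the end written 1 base lower, as 7855 of 14197 genes then match the RefSeq end and 581 do without it.

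On log2(CPM + 1), genes averaging 1 CPM or more were fitted by lmFit and trended eBayes (limma 3.58.1, R 4.3.3), 1 fit per table, with 2-sided p-values adjusted by Benjamini-Hochberg and a threshold of 0.05. Fold changes are ratios of mean CPM with propagated SDs. Differences on the log2(CPM + 1) scale understate changes of low genes. Libraries of a group are taken as separate mice, and p-values measure the spread between them. The script was tested on simulated data. Transcript lengths came from GENCODE M21.

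All 10 genes are reported. Of the other lists, up to 4 called genes with the largest change were named. The genes, lists and tests were chosen with earlier results of these data known. Alternatives were a pseudocount of 0.1, no filter, median-ratio rescaling, array weights, the compared groups alone, a replicate block, 1 not subtracted, each library left out and, chosen after seeing the data, Luc libraries 1 and 3 at 48 h left out together. Protein sequences were not analysed here.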

Additional observations from a re-analysis of the deposited data

Results flagged for a closer look

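In groups of 4 libraries, 50 checks for a library far from the other 3 were made over the 10 genes, of which chance marks about 1 in 20. They marked Dusp7 in 24 h library C without injection (34.9 CPM), Dusp1 in Luc library 3 at 4 h (137 CPM, the lowest of its group), Dusp8 in Luc library 3 at 48 h (17.8 CPM) and Dusp10 in AC library 5 at 48 h (10.7 CPM).

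The change against sham differed between times, by the direct test of 24 h against 4 h without injection, for Dusp10 (1.63), Dusp5 (1.58), Dusp6 (1.07), Dusp16 (0.91), Dusp4 (0.73), Dusp7 (0.63) and Dusp2 (0.41). In Luc hearts it differed between 4 and 24 h for Dusp7 (0.73) and Dusp8 (-1.01) and between 24 and 48 h for Dusp2 (-1.09) and Dusp7 (-0.55). All are differences in log2(CPM + 1), later minus earlier.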

How the results depend on the processing

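The 6 members called at 24 h without injection (Dusp2, Dusp4, Dusp5, Dusp6, Dusp10 and Dusp16) were called under all 16 alternatives, and no called change of a member reversed its sign under any alternative run. Of 2696 single-gene values recomputed, 2601 kept their side of the threshold, 54 lost and 41 gained a call. Replicate numbers did not consistently pair libraries, as 2 of 5 same-lettered pairs and 5 of 10 same-numbered AC and Luc pairs correlated over 0.1. Against Luc, 1 of 4 AC libraries at 4 h, 0 of 3 at 24 h and 2 of 3 at 48 h correlated best with their own number. Without injection, 1 of 2 libraries at 24 h did so against 4 h and 0 of 2 against sham. With a replicate block, 0 members were called at 4 h without injection and 0 for AC against Luc at 48 h, and other member counts stayed within 1.5 times. The calls lost were Dusp2 (0.86, adjusted p = 0.211) and Dusp7 (-0.79, adjusted p = 0.0939) at 4 h and Dusp1 (-0.84, adjusted p = 0.147) for AC, and Dusp1 was gained at 24 h without injection (1.15, adjusted p = 0.00505). For Luc at 48 h against sham, 0 members were called with array weights, 1 with the compared groups alone and 0 without Luc libraries 1 and 3. For Luc 48 h against 24 h these gave 5, 1 and 4, and for AC against Luc at 48 h the latter 2 gave 0 and 0. Leaving out 1 library gave 1 to 3 members at 4 h without injection, 0 to 3, 2 to 6 and 0 to 3 for Luc against sham at 4, 24 and 48 h, 1 to 4 for Luc 48 h against 24 h, and 0 to 2 for AC against Luc at 48 h. Rescaling by median ratios shifted the all-gene median by over 0.1 for Luc 24 h against sham (-0.17), against Luc 4 h (-0.15), for Luc 48 h against 24 h (0.22) and for AC against Luc at 48 h (-0.13), and split the calls there into 2294 higher and 2047 lower, 1969 and 1789, 2003 and 2085, and 823 and 802, against 3172 and 1103, 3079 and 979, 1170 and 4088, and 1516 and 410 in the deposited scaling. For 24 h against 4 h without injection the split was 4140 and 4038 against 4644 and 3332. Under it, Dusp6 and Dusp7 were no longer called in Luc hearts at 24 h against sham (adjusted p = 0.0908 and 0.145) and Dusp8 was, at -0.80 (adjusted p = 0.0112). From 24 to 48 h the Dusp7 call was lost (-0.31, adjusted p = 0.177) and Dusp10 gained (0.63, adjusted p = 0.0277), Dusp2 was lost for 24 h against 4 h without injection (0.35, adjusted p = 0.0906), and Dusp2 was gained for Luc at 4 h against sham (1.11, adjusted p = 0.0495). Over all genes, the 4 h count without injection was 296, and 105 to 560 with 1 library left out and 117 to 2500 under other settings. Likewise it was 194 (52 to 325, and 138 to 596) for Luc 4 h, 4275 (1682 to 4751, and 3117 to 4577) for Luc 24 h and 3774 (2150 to 4174, and 1494 to 3931) for Luc 48 h against sham, 4058 (up to 6147) for Luc 24 h against 4 h, 1926 (341 to 2896, and 430 to 3178) for AC against Luc at 48 h, 1 (up to 6) at 4 h, 1 (up to 8) at 24 h, 1 (up to 139) averaged over times, and 364 (56 to 1468) by time. The unknown depth of the injection series limits what its low values can show.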
